A study of Homo sapiens with 9 samples.

Results

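The effect of Salvianolic acid B (SalB) at 100 µM on the transcripts of A375 cells was measured over 13748 genes. A375 is an established human melanoma line, and SalB is a polyphenol found in the roots of Salvia miltiorrhiza. The genes were chosen without regard to their response: of 20463 annotated genes in the count table, these had enough counts in the 6 libraries of the comparison to be tested. The groups were untreated A375 cells (3 libraries) and A375 cells kept with 100 µM SalB for 48 h (3 libraries), out of 9 libraries in the series. The other 3 libraries came from cells given 200 µM for 48 h and enter only where the doses are compared. All groups share the cell line, the serum-containing medium and the culture time, and no vehicle is named for the controls. The replicates are called biological in the series' design text, with no word on how the cultures were separated, so the p-values measure the spread between these libraries. All values come from a single line at a single time.

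NF-kB is a family of dimeric transcription factors held in the cytoplasm by IkB proteins and freed when receptors of the TNF, interleukin-1 or Toll-like families are engaged. Its targets include chemokines, cytokines, inhibitors of apoptosis and its own inhibitors, and many melanoma lines transcribe them without an outside stimulus. The co-activators YAP and TAZ act with TEAD factors and respond to cell tension and adhesion, and their targets include matricellular proteins and cytoskeletal regulators. The matrix itself is made of collagens, laminins, glycoproteins and proteoglycans that are secreted and then bound by integrins.

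The 6 libraries held 29658753 to 30629685 counts each, and 15394 to 15565 annotated genes had at least 1 count. The first principal component of the 6 libraries held 60.2% of the variance. SOX10, PAX3, S100B and MITF, which mark the melanocyte lineage, were detected in all libraries, whereas the pigment genes TYR and MLANA were too low to be tested. Of 16 leukocyte markers, 12 were too low to be tested, with CD3E, MS4A1 and TYROBP among those with no count. The summed level of the 4 tested was 22.7 to 26.3 CPM (counts scaled to the same library total) in control and 20.2 to 21.6 CPM at 100 µM. Most of that sum was CD68, and none of the 4 was called. Of 14 epithelial markers 6 could be tested, and KRT5 and GRHL2 had no count. The summed level of the 6 was 253 to 262 CPM in control and 322 to 354 CPM at 100 µM. Most of that sum was KRT18 and KRT8, and 2 of the 6 markers tested, CLDN4 and ELF3, were called lower and none higher. The call of ELF3 was lost without control replicate 2 or 100 µM replicate 2 and when tested against 1.5-fold. It was also lost in the fit of all 9 libraries and when all but 200 µM replicate 3 were fitted together. Each of 16 fibroblast and endothelial markers had counts in at least 1 library, and 9 could be tested. The summed level of these 9 was 58.8 to 64.0 CPM in control and 79.3 to 82.7 CPM at 100 µM. Of the 9 tested, 4 were called higher and 2 lower. GC-rich transcripts were higher in the treated libraries. On the log2 scale, the richest eighth of genes by GC content stood above the poorest, relative to the control mean, by -0.0071, -0.15 and 0.16 in the control libraries and 0.88, 0.67 and 0.64 at 100 µM. The part of this gap in the results was not tested beyond a correction that removes each library's trend with GC content. Where that correction changed a count of calls by more than 1.5 times or ended a call, its value is given beside the result.

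A gene was called when its Benjamini-Hochberg adjusted p in the quasi-likelihood test of edgeR was under 0.05 and its change was at least 2-fold. By this rule 1171 genes (8.52% of those tested) were called, of which 740 (5.38%) were higher and 431 (3.14%) were lower at 100 µM. The counts of the gene lists below stand beside these shares. The lists were written with earlier results of these data known, so their counts are a description and not a test. The median log2 fold change of all tested genes was -0.0048, and the median size of the change was 0.34. Fewer genes fell than rose, but the falls were larger. Among called genes, 112 were at least 4-fold lower against 80 at least 4-fold higher, and 52 were at least 8-fold lower against 13 higher. After the GC correction 486 genes were called higher and 430 lower. In bulk libraries, fewer cells that make a transcript and less of it per cell cannot be told apart.

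**Figure D1:**
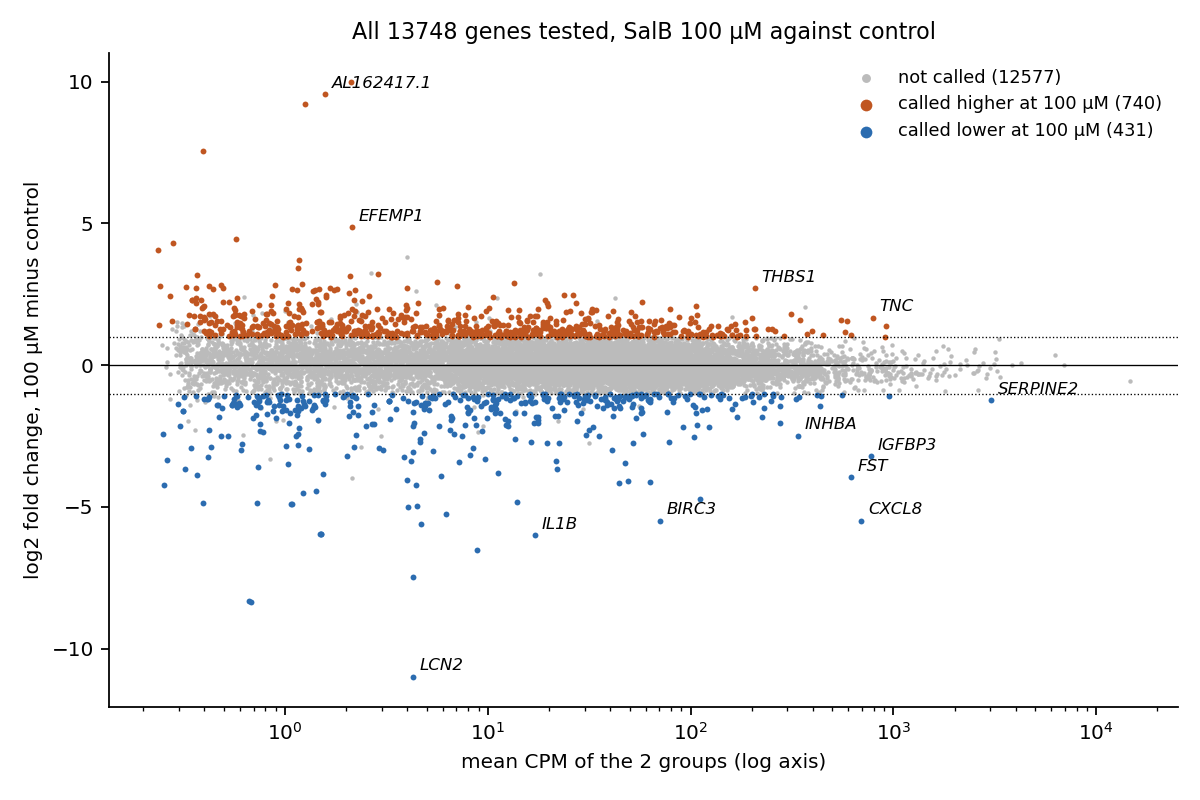
Log2 fold change of every tested gene (100 µM minus control) against its mean CPM on a log axis, with the 740 genes called higher in orange and the 431 called lower in blue. The dotted lines mark 2-fold, and genes with no count in a group, such as LCN2, are drawn at fitted values that are no measure of fold. Past 8-fold lie 52 genes called lower and 13 called higher.

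Chemokine genes were among those that fell most. Chemokines are small secreted proteins that attract leukocytes. Of 12 chemokine genes tested, 8 were called lower and none higher, with a median log2 fold change of -3.97. The stretches of 6 promoters are printed because each belongs to a gene called lower and carries the letters GGANNTTCC, a motif of the type that NF-kB dimers bind. They stand for 3 chemokines, a cytokine, the main NF-kB inhibitor and a receptor of the TNF family. Each is a stretch of the RefSeq promoter table on GRCh38.p14, written 5' to 3' on the strand of the gene, with the motif in capitals.
CXCL8: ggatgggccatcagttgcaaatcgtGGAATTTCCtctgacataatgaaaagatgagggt
CXCL1: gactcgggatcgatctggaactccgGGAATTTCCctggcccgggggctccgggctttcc
CXCL10: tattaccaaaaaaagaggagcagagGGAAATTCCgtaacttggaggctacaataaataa
CSF2: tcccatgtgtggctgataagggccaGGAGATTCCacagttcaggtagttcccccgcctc
NFKBIA: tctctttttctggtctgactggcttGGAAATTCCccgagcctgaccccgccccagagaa
TNFRSF9: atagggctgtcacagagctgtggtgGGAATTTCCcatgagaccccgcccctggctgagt
The stretches lie at chr4:73740453-73740511 on the plus strand (*CXCL8*), chr4:73869290-73869348 on the plus strand (*CXCL1*) and chr4:76023640-76023698 on the minus strand (*CXCL10*). Those of *CSF2*, *NFKBIA* and *TNFRSF9* lie at chr5:132073662-132073720 on the plus strand, chr14:35404797-35404855 on the minus strand and chr1:7940879-7940937 on the minus strand. The motif was searched on both strands from 250 bases before to 50 after each start. It occurred in 4.44% of the 11014 promoters matched to tested genes, in 7.53% of 332 promoters of genes called lower and in 3.10% of 549 promoters of genes called higher. Among genes at least 4-fold lower it occurred in 14 of 81 promoters, and among those at least 4-fold higher in 1 of 56. The AP-1 motif TGANTCA was in 4.59% of all promoters, 12.05% of those of genes called lower and 5.28% of those called higher. It occurred in 12 of the 81 and in 5 of the 56. Of the 8 chemokine genes called lower, 7 had a promoter in the table and 6 of these held the motif. A match is a description of the letters and not of binding.

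*CXCL8* (ENSG00000169429, chr4:73740506-73743716, plus strand) encodes interleukin-8, which attracts neutrophils. Its level was 1468, 1460.0 and 1142 CPM in the control libraries and 25.2, 28.8 and 36.1 CPM at 100 µM. The lowest control library was thus far above the highest treated one, and the log2 fold change was -5.50 ± 0.21 (adjusted p = 3.08e-05). *CXCL2* and *CXCL3* encode neutrophil attractants that share the receptor CXCR2. *CXCL2* stood at 10.1, 8.67 and 8.77 CPM in control against 0.1301, 0.231 and 0.198 CPM, a change of -5.59 ± 0.21 on the log2 scale (adjusted p = 3.73e-09). *CXCL3* went from 9.22, 8.05 and 7.95 CPM to 0.455, 0.495 and 0.396 CPM and fell 18.6-fold. *CXCL1*, which acts on the same receptor and was named after its values were seen, fell from 92.3, 96.4 and 81.9 CPM to 12.2, 13.4 and 14.9 CPM. *CXCL10* and *CXCL11* encode attractants of activated T cells that interferon also induces. The controls had 2.56, 3.61 and 2.66 CPM of *CXCL10*, and the treated libraries 0, 0.0660 and 0.0660 CPM, so that 1 of the 3 had no count. *CXCL11* likewise fell from 3.01, 2.81 and 3.11 CPM to 0.0650, 0.0660 and 0 CPM. No chemokine named here overlapped between the groups, which was so, higher or lower, for 67.8% of all tested genes, and the count of 8 was the same when any 1 of the 6 libraries was left out.

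Interleukins and hematopoietic growth factors behaved likewise, with 10 of 15 tested genes called lower, none higher and a median log2 fold change of -1.91. *CSF2*, which encodes the granulocyte-macrophage colony-stimulating factor, had 8.17, 8.40 and 8.84 CPM in control, and at 100 µM only 1 library had any count (0, 0.132 and 0 CPM). Its log2 fold change was -7.46 ± 0.51 (adjusted p = 5.53e-06). *IL1B* encodes secreted interleukin-1 beta, an inducer of NF-kB in neighbouring cells. It was at 33.4, 34.5 and 33.4 CPM in the controls and 0.325, 0.956 and 0.297 CPM at 100 µM (log2 fold change -5.99 ± 0.30, adjusted p = 6.58e-06). Interleukin-1 alpha, which often stays bound to the cell that makes it, is encoded by *IL1A*. Its transcript went from 84.6, 91.4 and 75.00 CPM to 4.26, 4.35 and 5.45 CPM and fell 17.8-fold. *IL24*, of the interleukin-10 family, gave 115, 121 and 121 CPM in control and 6.60, 6.96 and 7.06 CPM at 100 µM, and the spread within each group was small beside the 17.3-fold fall. *IL32*, which encodes an intracellular and secreted inducer of TNF, was 8.66, 6.49 and 8.33 CPM against 0, 0.264 and 0.462 CPM. The groups did not overlap for any of these 5 genes, with 34.5% of all tested genes lower at 100 µM without overlap.

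Receptors of these cytokines were called in both directions. Of 24 cytokine receptor genes tested, 2 were called higher and 2 lower (8.33% each way), and the median log2 fold change was 0.08. The shares of all tested genes were 5.38% higher and 3.14% lower. *IL17RD*, a receptor-like protein that dampens FGF signalling, rose by 1.20 ± 0.18 on the log2 scale, from 1.72, 2.26 and 1.74 CPM to 3.77, 4.88 and 4.52 CPM. *IL22RA1*, a subunit of the interleukin-22 receptor, had a log2 fold change of 1.02 ± 0.20, and its call was lost without control replicate 3 or without 100 µM replicate 1, when tested against 1.5-fold and after the GC correction. The 2 called lower were close to 2-fold: *IL6ST*, the shared signalling chain of interleukin-6 family receptors (-1.05 ± 0.09), and *IFNGR2*, a chain of the interferon gamma receptor (-1.01 ± 0.05, 13% of its exons overlap *TMEM50B*). The call of *IL6ST* was lost without control replicate 2 or without 100 µM replicate 1, with total-count scaling and after the GC correction. That of *IFNGR2* was lost without control replicate 2 or without 100 µM replicate 2, with total-count scaling and when all but 200 µM replicate 3 were fitted together. In the TNF and TNF receptor families 3 of 22 genes were called lower and 1 higher (13.6% and 4.55%). *TNFRSF9*, the co-stimulatory receptor also known as CD137, stood at 12.4, 11.03 and 12.97 CPM in control and 0.163, 0.429 and 0.363 CPM at 100 µM, 37.7-fold lower (adjusted p = 1.08e-08). *TNFRSF11B* encodes osteoprotegerin, the decoy receptor of the osteoclast factor RANKL, and *TNFRSF11A* encodes RANK, the signalling receptor of the same ligand. The decoy went from 33.3, 35.7 and 33.3 CPM to 5.01, 5.67 and 4.42 CPM and fell by 2.76 on the log2 scale. The signalling receptor, at low counts, rose by 1.45 ± 0.24 from 0.982, 1.08 and 0.853 CPM to 2.11, 2.51 and 3.33 CPM. *TNFRSF25*, a death receptor, fell by 1.07 on that scale, and 11% of its exons overlap *ESPN*.

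Several inhibitors and adaptors that NF-kB induces fell. Among 30 genes of NF-kB subunits and feedback, 6 were called lower and 1 higher (median log2 fold change -0.52). *NFKBIA* (ENSG00000100906, chr14:35401511-35404749, minus strand) encodes IkB alpha, which retains NF-kB in the cytoplasm. It had 52.6, 51.2 and 53.6 CPM in the control libraries and 11.3, 10.4 and 10.3 CPM at 100 µM, a log2 fold change of -2.30 ± 0.07 (adjusted p = 6.11e-10). *TNFAIP3* encodes A20, a ubiquitin-editing enzyme that ends NF-kB signalling. It went from 14.2, 14.8 and 15.05 CPM to 1.82, 1.45 and 1.65 CPM, 8.94-fold lower. The adaptor *TRAF1* had 86.1, 80.3 and 93.9 CPM in control and 7.58, 7.91 and 8.25 CPM at 100 µM, 10.96-fold lower. *RELB*, the subunit of the non-canonical pathway, went from 29.1, 25.1 and 26.9 CPM to 8.23, 6.69 and 8.15 CPM (-1.81 ± 0.10 on the log2 scale). *RELA*, the main activating subunit, was not among the called genes, with 54.8, 52.4 and 56.6 CPM in control and 71.7, 69.1 and 72.1 CPM at 100 µM. The member called higher was *BCL3*, a nuclear IkB protein, named here after its values were seen, at 1.23 ± 0.10, and its call was lost after the GC correction.

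Of 34 apoptosis regulators 4 were called lower and none higher, and after the GC correction the count was 2. *BIRC3* (ENSG00000023445, chr11:102317450-102339403, plus strand) encodes cIAP2, a ubiquitin ligase that holds back caspase activation at TNF receptors. Its level was 135, 149 and 128 CPM in control and 3.02, 2.84 and 3.33 CPM at 100 µM, with a log2 fold change of -5.49 ± 0.09 (adjusted p = 2.4e-12). Its close relative *BIRC2*, which encodes cIAP1, changed by -1.09 ± 0.06, from 266, 280.4 and 260.4 CPM to 116, 129 and 134 CPM, and by -0.73 after the GC correction, which ended the call. *BCL2A1*, a BCL2 family protein that protects cells and that melanocytes express, stood at 21.5, 21.9 and 19.7 CPM against 1.20, 1.42 and 1.95 CPM, 13.8-fold lower. *PMAIP1*, which encodes the pro-apoptotic protein NOXA, had a log2 fold change of -1.16 ± 0.08 and -0.76 after the GC correction, below 2-fold. The pro-apoptotic *BAX* and the protective *BCL2* were not called, at 0.42 ± 0.05 and 0.15 ± 0.10.

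**Figure D2:**
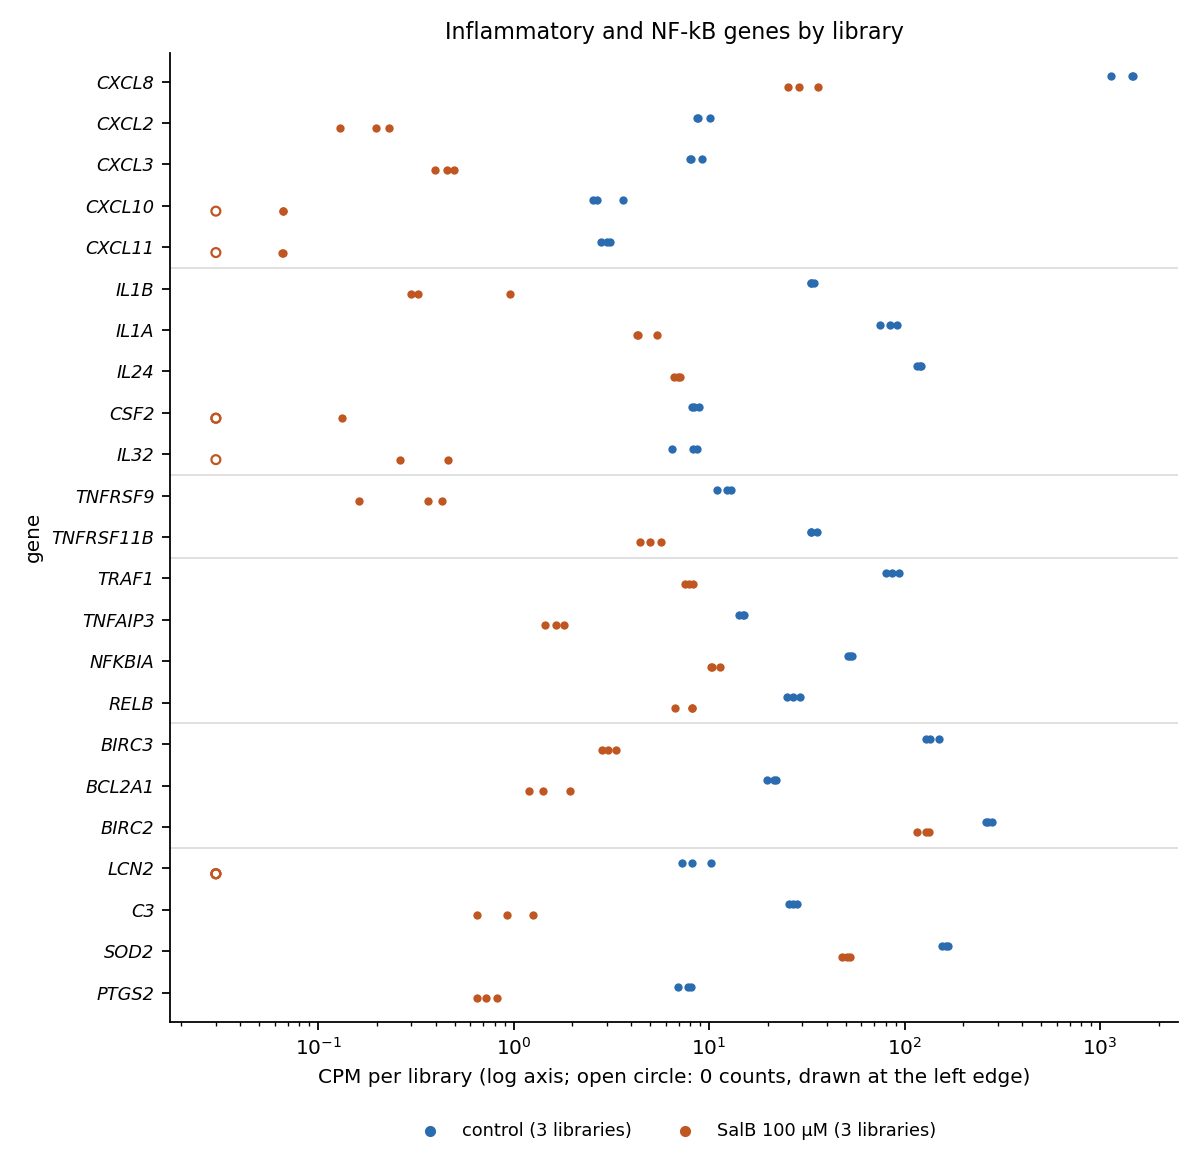
CPM per library on a log axis for chemokines, cytokines, TNF receptors, NF-kB feedback genes, apoptosis regulators and other inflammatory genes, with blue points for the 3 control libraries and orange points for the 3 libraries at 100 µM. Open circles mark 0 counts and are drawn at the left edge. In each row the 3 orange points lie to the left of the 3 blue points, and BIRC2 shows the smallest gap of the genes drawn.

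*LCN2* (ENSG00000148346, chr9:128149071-128153455, plus strand) encodes lipocalin-2, which binds bacterial iron carriers. It had 8.17, 7.25 and 10.3 CPM in control and no count in any library at 100 µM, so it was at least 261-fold lower, taking 3 counts over the treated group as the floor. Complement *C3*, the central protein of the complement cascade, was 26.9, 25.7 and 28.1 CPM in control and 0.650, 0.923 and 1.25 CPM at 100 µM (28.4-fold lower). In the list of complement and coagulation genes 3 of 17 were lower and 1 higher (17.6% and 5.88%, beside 3.14% and 5.38% of all tested genes). The lower ones besides *C3* were *TFPI2*, a matrix-bound protease inhibitor (-2.19 ± 0.13), and *CD55*, which shields cells from complement (-2.09 ± 0.05). The thrombin receptor *F2R* was higher (1.17 ± 0.05), and a second gene of the list was called higher without control replicate 1 or 100 µM replicate 1. In the prostaglandin pathway the inducible cyclooxygenase *PTGS2* went from 7.78, 8.08 and 6.93 CPM to 0.650, 0.824 and 0.726 CPM and the prostaglandin E synthase *PTGES* from 91.8, 84.9 and 88.8 CPM to 36.7, 37.4 and 35.6 CPM. Both were called lower, at -3.37 ± 0.17 and -1.28 ± 0.05 on the log2 scale. The prostacyclin synthase *PTGIS* and the prostaglandin transporter *SLCO2A1* were called higher at low counts. *PTGIS* went from 0.140, 0 and 0 CPM to 1.04, 1.29 and 0.957 CPM and *SLCO2A1* from 0, 0.139 and 0.102 CPM to 0.683, 0.561 and 0.462 CPM, and neither passed a filter of 1 CPM. Of 12 S100 calcium-binding proteins, 5 were lower and none higher. *S100A6* fell from 1372, 1221 and 1309 CPM to 609, 602 and 614 CPM, and *S100P* from 1.12, 0.347 and 0.819 CPM to 0, 0 and 0.0660 CPM.

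Of 33 genes known to respond to low oxygen, 10 were called lower and 1 higher, and their median log2 fold change was -0.78. These genes are induced by the HIF factors, which bind a core of the letters ACGTG. The core was found on either strand in 14 of 27 promoters of the list (51.9%) and in 26.3% of all 11014 promoters. Over all tested genes it was in 83 of 332 promoters of those called lower, 114 of 549 of those called higher and 15 of 81 of those at least 4-fold lower. Of the 10 members called lower, 8 had a promoter in the table and 6 of these held it. It is part of CACGTG, the E-box, which was found in 10.0% of all promoters. The stretches of 3 lower members are given as above, with the core in capitals as it reads on the strand of the gene, ACGTG or its reverse complement CACGT.
BNIP3: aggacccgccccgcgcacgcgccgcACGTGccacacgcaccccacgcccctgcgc
INSIG2: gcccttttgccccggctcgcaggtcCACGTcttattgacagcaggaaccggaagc
P4HA1: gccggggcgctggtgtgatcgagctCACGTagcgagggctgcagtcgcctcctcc
They lie at chr10:131982027-131982081 on the minus strand (*BNIP3*), chr2:118088351-118088405 on the plus strand (*INSIG2*) and chr10:73096923-73096977 on the minus strand (*P4HA1*). *BNIP3*, which directs mitochondria to autophagy, was 451, 452 and 418 CPM in control and 104, 110.0 and 111 CPM at 100 µM, or -2.02 ± 0.05 on the log2 scale (adjusted p = 9.03e-11). *STC1* encodes stanniocalcin-1, a secreted regulator of calcium and phosphate. It stood at 41.5, 40.2 and 36.6 CPM against 3.45, 4.65 and 3.27 CPM and was 10.4-fold lower. The carbonic anhydrase gene *CA9*, a common marker of hypoxic tumour, went from 2.45, 3.23 and 2.46 CPM to 0.0650, 0 and 0.297 CPM, though 39% of its exons overlap *ARHGEF39*. *TMEM45A*, a membrane protein gene, fell by 1.68 ± 0.08 on the log2 scale. The groups did not overlap for these 4 genes, beside the 34.5% of all genes. *INSIG2*, which restrains sterol synthesis, and *P4HA1*, a collagen prolyl hydroxylase subunit, were chosen for their promoters and changed by -1.57 ± 0.13 and -1.17 ± 0.05. *HIF1A* itself had 259, 276 and 253 CPM in control and 270.4, 273 and 271 CPM at 100 µM and was not called. The member called higher was the oxygen sensor *EGLN3*, named after its values were seen (1.22 ± 0.41). No member was called higher with DESeq2, with a filter of 1 CPM, when tested against 1.5-fold, in the fit of all 9 libraries or without control replicate 1 or 3 or without 100 µM replicate 1. Of 20 glycolysis genes, many of which HIF also induces, only the enolase *ENO2* was called, from 86.7, 93.9 and 88.5 CPM to 36.4, 36.0 and 36.1 CPM. Without control replicate 3 or 100 µM replicate 1, in the fit of all 9 libraries and after the GC correction 2 glycolysis genes were called lower. *GAPDH*, for which 14% of its exons overlap *AC006064.4*, and *ENO1* had log2 fold changes of 0.02 ± 0.04 and -0.01 ± 0.04.

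Several immediate early genes, which answer growth factor signals within minutes, fell. Of 30 AP-1 and immediate early genes 8 were called lower and none higher, and 5 were called without control replicate 1. The orphan nuclear receptor *NR4A2* went from 26.7, 28.3 and 26.3 CPM to 6.44, 6.89 and 6.27 CPM, 4.15-fold lower (adjusted p = 5.46e-09). *NR4A1* and *NR4A3*, of the same family, fell as well, by 1.49 and 1.77 on the log2 scale, and for *NR4A1* 10% of its exons overlap *AC025259.3*. *MAFF*, a small MAF factor, stood at 39.1, 35.4 and 42.8 CPM in control and 17.4, 19.1 and 15.6 CPM at 100 µM. BRAF-mutant melanoma such as A375 signals through the kinase ERK, and a set of phosphatases and Sprouty proteins reports on that output. Of 27 such genes 5 were called lower and none higher. The count was 3 with total-count scaling, without 100 µM replicate 1 and with overlapping genes left out. *DUSP5*, a nuclear ERK phosphatase, was 32.6, 31.2 and 32.8 CPM against 12.4, 12.8 and 14.03 CPM, and *DUSP10*, which acts on JNK and p38, was 32.7, 33.7 and 31.2 CPM against 15.1, 15.1 and 14.6 CPM. *SPRY1*, a Sprouty inhibitor of receptor signalling, changed by -1.19 ± 0.12. Cyclin D1, encoded by *CCND1*, went from 761, 755 and 746 CPM to 336, 374 and 387 CPM, just past 2-fold. For *CCND1* 10% of its exons overlap *LTO1*, and its call was lost without 100 µM replicate 1 and with total-count scaling. Among 33 growth factor ligands 4 were lower and 1 higher (12.1% and 3.03%, beside 3.14% and 5.38% of all tested genes). The higher one was the PDGF B chain gene *PDGFB* (1.06 ± 0.20), and without control replicate 1 no ligand was called higher. The EGF receptor ligands *AREG* and *BTC*, at 0.9 to 2.8 CPM in control, fell by 2.30 and 1.92 on the log2 scale. The hepatocyte growth factor gene *HGF* had 1.09, 3.47 and 1.23 CPM in control, with replicate 2 above the others, and 0.228, 0.396 and 0.627 CPM at 100 µM, and lost its call when tested against 1.5-fold.

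Secreted regulators of the TGF-beta and insulin-like growth factor families moved in both directions. *FST* (ENSG00000134363, chr5:53480409-53487134, plus strand) encodes follistatin, which binds and neutralises activins. It had 1174, 1173 and 1116 CPM in control and 72.6, 75.6 and 74.96 CPM at 100 µM, and the log2 fold change of -3.96 ± 0.04 had the smallest adjusted p of all tested genes (2.04e-13). *INHBA*, the activin A subunit gene, went from 585, 596 and 539.8 CPM to 89.8, 106 and 111 CPM, so the ligand and its antagonist were both lower. *ATOH8*, a helix-loop-helix factor induced by BMP signalling, rose from 7.19, 6.90 and 7.78 CPM to 38.1, 43.5 and 38.9 CPM (5.51-fold). *TGFB2*, which encodes TGF-beta 2, rose at low counts from 0.701, 0.520 and 0.273 CPM to 2.18, 2.44 and 2.05 CPM, and 27% of its exons overlap *TGFB2-OT1*. In the whole list 5 of 46 genes were higher and 5 lower, and 3 were higher after the GC correction. *IGFBP3* (ENSG00000146674, chr7:45912245-45921874, minus strand), which carries insulin-like growth factors, went from 1407, 1382 and 1395 CPM to 147, 150.0 and 153 CPM, 9.29-fold lower (adjusted p = 2.26e-13). *IGFBP5*, of the same family, moved the opposite way, from 6.91, 5.97 and 6.79 CPM to 32.2, 31.8 and 31.8 CPM, 4.87-fold higher. The insulin receptor substrate *IRS1* rose from 7.43, 8.67 and 7.95 CPM to 26.2, 26.9 and 27.9 CPM. The groups stood apart for each of these 7 genes, as they did for 67.8% of all genes. Of 14 genes in the family list, 4 were higher and 1 lower. Besides *IGFBP3* a second gene was called lower without control replicate 2, without 100 µM replicate 3, in the fit of all 9 libraries and after the GC correction.

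Genes of the extracellular matrix were mostly higher among those called. Of 53 matrix glycoprotein and proteoglycan genes 24 were called higher and 5 lower, the median log2 fold change was 0.82, and 21 were higher after the GC correction. *THBS1* (ENSG00000137801, chr15:39581079-39599466, plus strand) encodes thrombospondin-1, which binds cells, collagen and latent TGF-beta. Its values were 55.1, 55.1 and 54.5 CPM in control and 366, 353 and 360.3 CPM at 100 µM, a log2 fold change of 2.71 ± 0.04 (adjusted p = 2.4e-12). *VCAN*, which encodes the large proteoglycan versican, stood at 2.84, 3.05 and 3.51 CPM in control and 24.7, 21.9 and 24.5 CPM at 100 µM, 7.53-fold higher. *EFEMP1*, for the elastic fibre protein fibulin-3, was nearly absent from the controls, with 0.140, 0.0694 and 0.205 CPM, and reached 3.51, 5.01 and 3.86 CPM. Tenascin C, encoded by *TNC*, is a large glycoprotein of wounds and tumours. It went from 374, 376 and 385 CPM to 1289, 1176 and 1155 CPM, the largest rise in CPM of the called genes. *OLFML2A*, an olfactomedin-domain protein gene, rose 7.60-fold, and *HSPG2*, for the basement membrane proteoglycan perlecan, 4.66-fold, though 12% of the latter’s exons overlap *LDLRAD2*. *ESM1* encodes endocan, a small soluble proteoglycan of activated endothelium, and fell against this direction, from 225, 224 and 197 CPM to 8.20, 8.18 and 8.22 CPM (26.3-fold, adjusted p = 1.54e-12).

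Of 29 collagen genes 8 were called higher and 1 lower (median log2 fold change 0.56). The GC correction left 5 higher and 3 lower, and without control replicate 3 or 100 µM replicate 3 the count of lower genes was 2. The fibrillar collagen *COL5A2* went from 139, 137 and 139 CPM to 475, 494 and 493 CPM, 3.51-fold higher (adjusted p = 5.98e-11). *COL4A2*, a chain of the basement membrane collagen, went from 277, 268 and 289 CPM to 863, 818 and 811 CPM. *COL1A1*, the main collagen of fibroblasts, rose from 0.561, 0.486 and 0.273 CPM to 3.15, 3.20 and 2.31 CPM and so remained low. *COL8A2*, a short-chain collagen, rose by 1.96 ± 0.29 on the log2 scale. *COL22A1* was the called member that fell, from 4.49, 4.27 and 4.30 CPM to 0.780, 1.19 and 1.16 CPM. *LOXL2*, which crosslinks collagen, rose from 42.6, 40.1 and 40.6 CPM to 138, 131 and 135 CPM, and *P3H2*, a collagen prolyl hydroxylase, fell from 15.9, 15.3 and 15.5 CPM to 4.03, 4.06 and 4.79 CPM. In the list of crosslinking and folding enzymes 2 of 21 were higher and 3 lower (9.52% and 14.3%, beside 5.38% and 3.14% of all tested genes). The second higher gene was the low-count protease *TLL2* (1.26 ± 0.45), whose call was lost without control replicate 3 or without 100 µM replicate 2 or 3, with DESeq2, with the replicate number as a block, when all 9 libraries were fitted together and when tested against 1.5-fold. Among the lower ones *P4HA3*, a prolyl hydroxylase subunit (-1.25 ± 0.40), lost its call without control replicate 1 or without 100 µM replicate 1 or 2 and when tested against 1.5-fold. *COL1A1*, *DCN*, *LUM* and *PDGFRB* also stand in the list of fibroblast and endothelial markers, whose summed level over the tested members was higher at 100 µM. These are the 4 of its 9 tested members called higher. *KDR* and the low-count *PECAM1* were called lower, and *FAP* was not called, at 18.1 to 19.8 CPM in control and 10.4 to 11.4 CPM at 100 µM. These *FAP* values are scaled by library total alone. The count of lower members was 1 with DESeq2, without a filter or with one of 1 CPM, in the fit of all 9 libraries and without any 1 library other than 100 µM replicate 3. The part of those cell types in these values was not tested. *COL3A1*, *COL1A2* and *THY1*, 3 further fibroblast markers, reached no more than 0.269 CPM, scaled by library total alone, in any of the 6 libraries.

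Integrins and laminins, the receptors and ligands of the basement membrane, were mixed, with 7 of 30 higher and 3 lower. After the GC correction 3 were higher. *ITGB8*, the integrin chain that activates latent TGF-beta, fell from 178, 193 and 159 CPM to 27.8, 30.3 and 34.6 CPM, 5.72-fold (adjusted p = 1.32e-07). *ITGA9*, whose product binds tenascin C, rose from 14.8, 13.5 and 13.7 CPM to 46.4, 53.9 and 53.5 CPM, and *ITGB4*, of the laminin receptor of hemidesmosomes, from 0.947, 0.833 and 0.682 CPM to 4.36, 3.20 and 4.42 CPM. Of 42 proteases and inhibitors of the matrix 7 were higher and 4 lower. The interstitial collagenase *MMP1* fell from 12.7, 13.1 and 12.1 CPM to 2.34, 2.67 and 1.72 CPM, and the aggrecanase *ADAMTS1* from 21.9, 18.1 and 19.6 CPM to 4.39, 5.08 and 4.49 CPM. *MMP9*, a gelatinase, went from 6.91, 6.77 and 7.34 CPM to 0.683, 0.495 and 1.06 CPM, but 18% of its exons overlap *SLC12A5-AS1*. *MMP15*, a membrane-bound protease, rose from 6.91, 7.67 and 7.98 CPM to 25.2, 23.6 and 25.7 CPM. The groups did not overlap for these 7 genes, nor for 67.8% of all tested genes.

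In the plasminogen system, which dissolves fibrin and matrix, 4 of 12 genes were lower and 1 higher, and with overlapping genes left out the counts were 2 and 0. *SERPINE2*, protease nexin-1, was among the most abundant transcripts of the list. It went from 4222, 4331 and 4208 CPM to 1773, 1822 and 1814 CPM, which was -1.24 ± 0.03 on the log2 scale (adjusted p = 1.97e-10) and the largest fall in CPM of the called genes. *SERPINB2*, which inhibits urokinase, went from 16.7, 19.5 and 16.4 CPM to 0, 0.165 and 0.396 CPM, but 20% of its exons overlap *SERPINB10*. Urokinase itself, *PLAU*, was called higher at 0.561, 0.590 and 0.273 CPM against 1.85, 1.22 and 2.54 CPM, and 31% of its exons overlap *C10orf55*.

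Several genes of contractile and crosslinking proteins of the cytoskeleton rose. Of 36 actin and myosin genes 14 were called higher and none lower (11 and 1 after the GC correction), and the median log2 fold change was 0.68. *FLNA* (ENSG00000196924, chrX:154348524-154374638, minus strand) encodes filamin A, which joins actin filaments into networks. Its level was 289, 288 and 315 CPM in control and 918, 869 and 856 CPM at 100 µM, 2.97-fold higher (adjusted p = 6.71e-10). *CNN2*, for the actin-binding protein calponin-2, went from 16.1, 17.1 and 19.4 CPM to 73.1, 63.7 and 58.8 CPM. *MYH14*, a non-muscle myosin heavy chain, rose from 4.07, 3.23 and 2.83 CPM to 19.2, 17.9 and 16.7 CPM, and *MYL9*, a myosin light chain, from 0.316, 0.625 and 0.512 CPM to 3.51, 2.61 and 3.23 CPM. *TAGLN*, the smooth muscle protein transgelin, rose by 1.76 ± 0.20 on the log2 scale, with 11% of its exons overlapping *PCSK7*. YAP and TAZ targets showed 9 of 31 higher and 2 lower (median log2 fold change 0.61). *ANKRD1*, a nuclear and sarcomeric ankyrin protein gene, rose from 0.421, 0.312 and 0.512 CPM to 2.89, 3.59 and 4.75 CPM, and *CCN2*, connective tissue growth factor, from 13.9, 11.6 and 12.4 CPM to 45.3, 45.3 and 44.8 CPM. The lower ones were *IGFBP3*, described above, and *NT5E*, the ectonucleotidase CD73, which is outside the naming rule and changed by -1.52 ± 0.04. The TEAD motif GGAATG occurred on either strand in 8 of 24 promoters of the list, called or not, and in 10.9% of all promoters. It was in 9.65% of promoters of all genes called higher and 13.25% of those called lower.

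**Figure D3:**
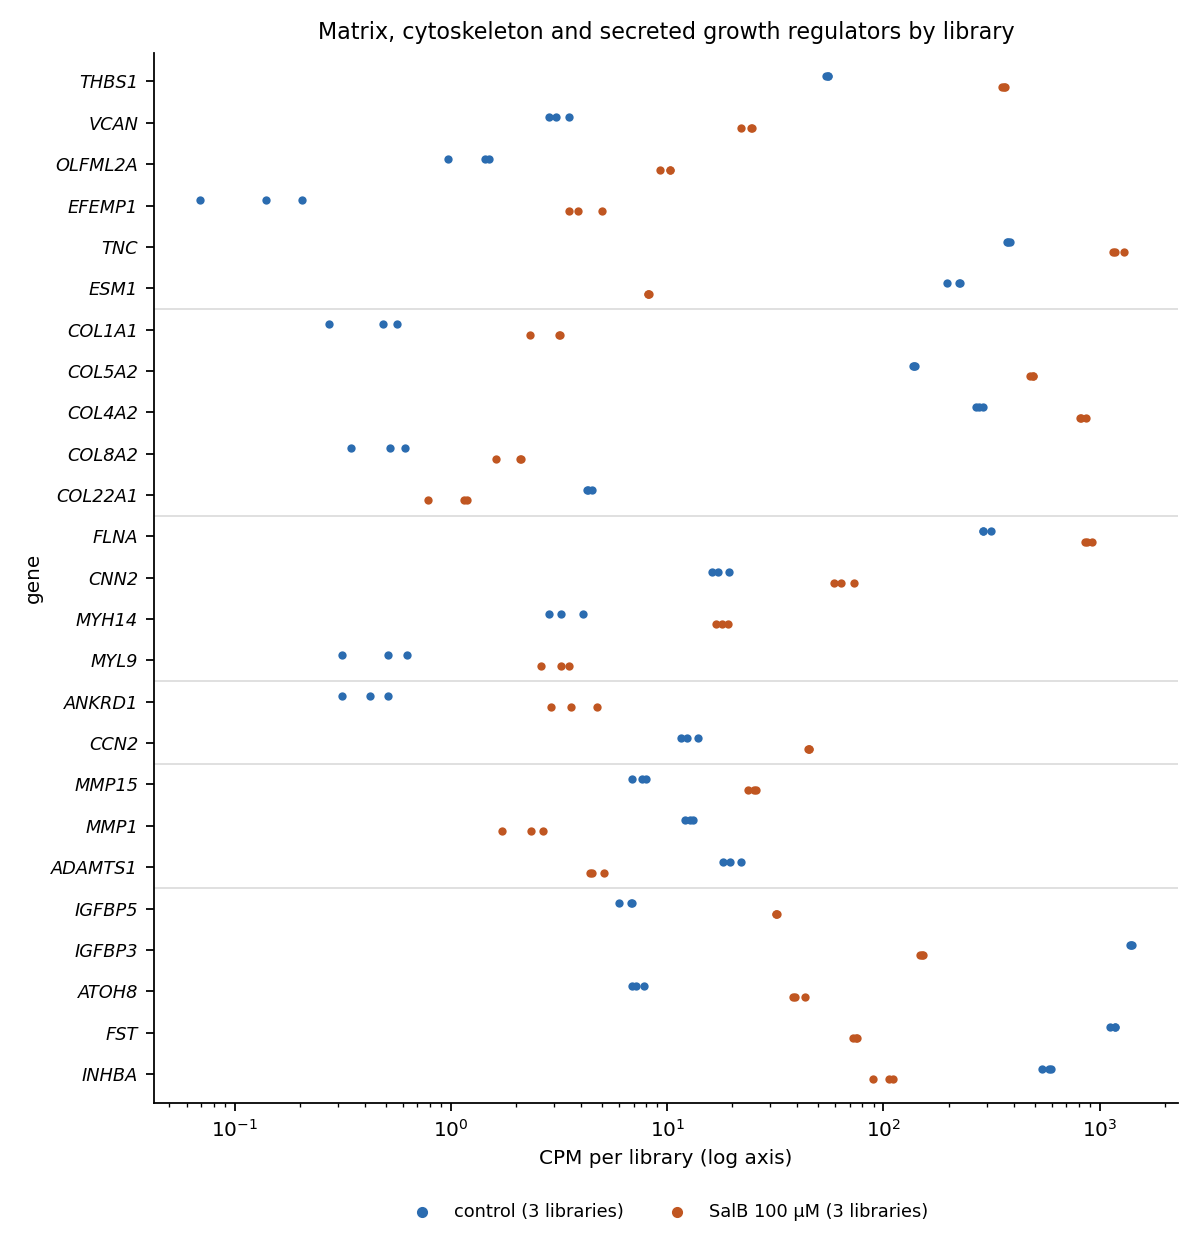
CPM per library on a log axis for matrix, collagen, cytoskeleton, YAP target, protease and secreted growth regulator genes, with blue points for the 3 control libraries and orange points for the 3 libraries at 100 µM. Matrix and cytoskeleton genes lie to the right at 100 µM, with ESM1 and COL22A1 to the left, and IGFBP5 and IGFBP3 lie on opposite sides.

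Guidance molecules, which steer axons and migrating cells, were mostly higher among those called: 12 of 53 semaphorin, plexin and ephrin genes rose and 2 fell. The counts were 8 and 0 after the GC correction, and the count of lower genes was 1 without 100 µM replicate 1. *SEMA6B*, a transmembrane semaphorin, went from 7.26, 9.02 and 7.85 CPM to 45.0, 45.0 and 43.3 CPM, 5.52-fold higher. *PLXND1*, a semaphorin receptor, went from 17.7, 17.5 and 19.2 CPM to 64.9, 56.7 and 58.7 CPM, and the netrin receptor *UNC5C* from 0.526, 0.486 and 0.409 CPM to 2.15, 1.81 and 1.82 CPM. Of 43 Wnt and Notch genes 5 were higher and 1 lower, and 2 were higher and 2 lower after the GC correction. *NOTCH1*, a receptor of membrane-bound ligands, rose from 14.2, 12.9 and 15.1 CPM to 58.1, 52.6 and 52.2 CPM. *DKK3*, a secreted protein of the Dickkopf family, rose from 12.9, 12.8 and 13.9 CPM to 55.7, 49.6 and 50.2 CPM.

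Receptor kinases that have been linked to drug-resistant melanoma were 6 of 23 higher and 2 lower, with 3 higher after the GC correction. *PDGFRB*, the PDGF receptor beta, rose from 10.97, 9.37 and 10.3 CPM to 30.96, 26.9 and 29.4 CPM. *NGFR*, a neural crest marker listed with them, rose from 21.6, 20.9 and 24.7 CPM to 67.0, 63.5 and 63.0 CPM, and 27% of its exons overlap *AC015656.1*. *KDR*, the VEGF receptor 2, fell by 1.92 on the log2 scale. Of 23 melanocyte lineage genes 1 was higher and 2 were lower (4.35% and 8.70%, beside 5.38% and 3.14% of all tested genes). The lower ones were *BCL2A1* and *RAB38*, a GTPase of melanosome traffic (42.4, 41.5 and 41.3 CPM against 17.2, 18.3 and 18.9 CPM). The higher one was *SEMA6A*, at 1.55 ± 0.09. A second melanocyte gene was called higher without control replicate 2 or 100 µM replicate 1, and 3 were higher after the GC correction. The lineage factors *MITF* and *SOX10* did not reach 2-fold. *MITF* was at 27.6, 31.7 and 27.3 CPM in control and 16.8, 17.3 and 19.5 CPM at 100 µM, and *SOX10* at 343, 326 and 364 CPM and 541, 532 and 539 CPM. Among EMT-type factors and cadherins, N-cadherin (*CDH2*) rose from 95.3, 99.6 and 91.8 CPM to 192, 203 and 198 CPM and the stem cell factor *SOX2* from 5.71, 4.82 and 5.36 CPM to 14.5, 16.7 and 16.01 CPM. Cadherin-19 (*CDH19*) changed by -1.02 ± 0.06, and its call was lost without control replicate 2 or without 100 µM replicate 1, with total-count scaling and after the GC correction. Without control replicate 3 or 100 µM replicate 3, 2 genes of this list were called lower.

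Few genes of the cell cycle passed the rule. None of 44 replication genes was called in either direction, although 17 were higher and 18 lower when the 2-fold minimum was dropped, a looser rule that 29.8% of all tested genes passed upwards and 31.4% downwards. Among 40 mitosis genes *CDK1*, the mitotic kinase, was called lower, from 331, 365 and 328 CPM to 157, 170.4 and 181 CPM. That call was lost without control replicate 2 or without 100 µM replicate 1, with total-count scaling, when all but 200 µM replicate 3 were fitted together and after the GC correction. *TOP2A* and *CENPF*, the most abundant of the list, changed by -0.31 ± 0.04 and 0.11 ± 0.04. The proliferation antigen *MKI67* stood at 238, 243 and 242 CPM in control and 472, 447 and 430.3 CPM at 100 µM, below 2-fold. The inhibitor *CDKN1A*, which encodes p21, was at 140.1, 138 and 141 CPM and 85.8, 88.2 and 87.5 CPM and *MYC* at 19.98, 20.3 and 19.4 CPM and 26.2, 21.7 and 23.3 CPM, and neither was called. In the G1 list only *CCND1* passed, as above, and after the GC correction 1 gene was higher and 2 were lower. Of 33 p53 targets only *PMAIP1* was lower and only the plexin *PLXNB2* higher (1.37 ± 0.06, 0.97 after the GC correction), and neither was called after the GC correction. That was 3.03% each way, beside 5.38% higher and 3.14% lower over all tested genes.

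Of 46 interferon-stimulated genes 2 were higher and 2 lower (4.35% each way, beside 5.38% higher and 3.14% lower over all tested genes), with a median log2 fold change of -0.07. The exonuclease gene *ISG20* fell from 87.3, 77.1 and 88.9 CPM to 28.6, 29.6 and 30.3 CPM, and *RIGI*, the RNA sensor, from 18.9, 18.8 and 18.1 CPM to 8.36, 8.77 and 8.12 CPM, the latter at -0.89 after the GC correction. The 2 higher ones were less firm. *IFITM2*, an antiviral membrane protein gene (1.06 ± 0.08), lost its call after the GC correction and 23% of its exons overlap *IFITM1*. *APOL1* (1.05 ± 0.40) lost its call without control replicate 1 or 2 or without 100 µM replicate 2 or 3, with DESeq2, with no filter, when tested against 1.5-fold and after the GC correction. In antigen presentation the class I light chain gene *B2M* stood at 889, 881 and 831 CPM in control and 466, 481 and 478 CPM at 100 µM and did not reach 2-fold.

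Of 37 targets of the antioxidant factor NRF2, 1 was higher and 3 were lower (2.70% and 8.11%, beside 5.38% and 3.14% of all tested genes). The higher one was the drug and glutathione exporter *ABCC1* (1.19 ± 0.08), at 0.98 after the GC correction, below 2-fold. *SQSTM1*, the autophagy receptor p62, fell from 427, 350.5 and 435 CPM to 138, 172 and 133 CPM, with 22% of its exons overlapping *MRNIP*. *AKR1C1*, an aldo-keto reductase gene, fell from 14.9, 16.8 and 15.7 CPM to 5.17, 5.77 and 7.69 CPM. *HMOX1*, heme oxygenase 1, was at 7.99, 7.74 and 6.995 CPM and 7.15, 5.31 and 6.57 CPM and was not called. Of 33 redox enzyme genes 1 was higher and 4 were lower (12.1%, beside 3.14% of all tested genes). The mitochondrial superoxide dismutase *SOD2* fell from 167, 163 and 156 CPM to 47.6, 52.8 and 51.0 CPM, and *NOX4*, an oxidase that makes hydrogen peroxide, from 28.4, 31.3 and 26.1 CPM to 7.22, 6.43 and 7.20 CPM. The identifier of *SOD2* was not found in the annotation used here, so it had no GC correction and its exon overlap is not known. The extracellular dismutase *SOD3* changed by -1.64 ± 0.23 on the log2 scale. The higher one was the secreted glutathione peroxidase *GPX3* (1.61 ± 0.27). In the endoplasmic reticulum *HSPA5*, the chaperone BiP, rose from 608, 604 and 599 CPM to 1212, 1232 and 1191 CPM, at 2-fold, and lost its call when all 9 libraries were fitted together. Its partner *HYOU1* rose from 61.6, 62.9 and 86.9 CPM to 196, 164 and 186 CPM, while the co-chaperone *DNAJB9* fell from 43.6, 42.9 and 40.3 CPM to 14.1, 18.0 and 18.8 CPM. Of 27 genes of the unfolded protein response, these 3 were called. That was 7.41% higher and 3.70% lower, near the 5.38% and 3.14% of all tested genes.

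*FASN*, fatty acid synthase, rose from 91.6, 88.0 and 109.9 CPM to 322, 296 and 298 CPM (3.17-fold, adjusted p = 4.5e-07), and *SREBF1*, the factor that induces it, from 50.2, 49.8 and 58.5 CPM to 151, 143 and 146 CPM. *CD36*, a fatty acid receptor, fell from 12.4, 10.96 and 9.66 CPM to 0.813, 0.429 and 0.957 CPM, 14.9-fold. In the sterol list no gene was higher and 2 of 29 were lower (6.90%, beside 3.14% of all tested genes). These were the cholesterol exporter *ABCA1* (-1.36 ± 0.26) and the synthesis enzyme gene *MSMO1* (-1.06 ± 0.15), whose call was lost without 100 µM replicate 1 and after the GC correction. Without control replicate 3, 100 µM replicate 1 or 100 µM replicate 2, and with total-count scaling or the replicate block, 1 sterol gene was called higher. The lysosomal protease *CTSS* fell from 72.7, 75.4 and 69.6 CPM to 8.13, 8.61 and 10.9 CPM (7.89-fold), and *OPTN*, an autophagy receptor, from 53.7, 56.4 and 54.2 CPM to 22.0, 24.0 and 20.8 CPM. The transferrin receptor *TFRC* fell from 590.0, 609 and 584 CPM to 267, 289 and 293 CPM and was at -0.87 after the GC correction, below 2-fold. *CYP1A1*, the classical target of the aryl hydrocarbon receptor, rose from 1.26, 0.798 and 1.26 CPM to 4.55, 3.92 and 3.66 CPM.

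Genes of the protein and energy machinery were almost all below 2-fold. None of 81 cytosolic ribosomal protein genes was called, but 61 were lower and 3 higher under the looser rule, with a median log2 fold change of -0.35. *RPS6*, of the small subunit, for which 10% of its exons overlap *AL391834.2*, had 3822, 3874 and 3784 CPM in control and 2980.0, 2869.8 and 2811 CPM at 100 µM. None of 46 proteasome genes and none of 75 nuclear genes of the respiratory chain was called, with 16 of the latter higher and 39 lower under the looser rule. With DESeq2, without 100 µM replicate 3 and in 4 further settings 1 proteasome gene was called lower. Of 78 mitochondrial ribosomal protein genes *MRPS6* was called lower (-1.35 ± 0.05), and 10% of its exons overlap *AP000317.2*. After the GC correction 2 of them were lower. The mRNAs of the mitochondrial genome went the other way: 2 of 13 were called higher and 9 were higher under the looser rule. Together they took 2.11% to 2.32% of counts in the control libraries and 2.86% to 3.15% at 100 µM. *MT-ND5*, a complex I subunit, rose from 569, 473 and 490.1 CPM to 1392, 1361 and 1243 CPM. *MT-ND6*, the only one of them read from the other strand, changed by 1.00 ± 0.26 and lost its call without control replicate 2 or 3 or without 100 µM replicate 1, 2 or 3, with the replicate number as a block, when all 9 libraries were fitted together and when tested against 1.5-fold.

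**Figure D4:**
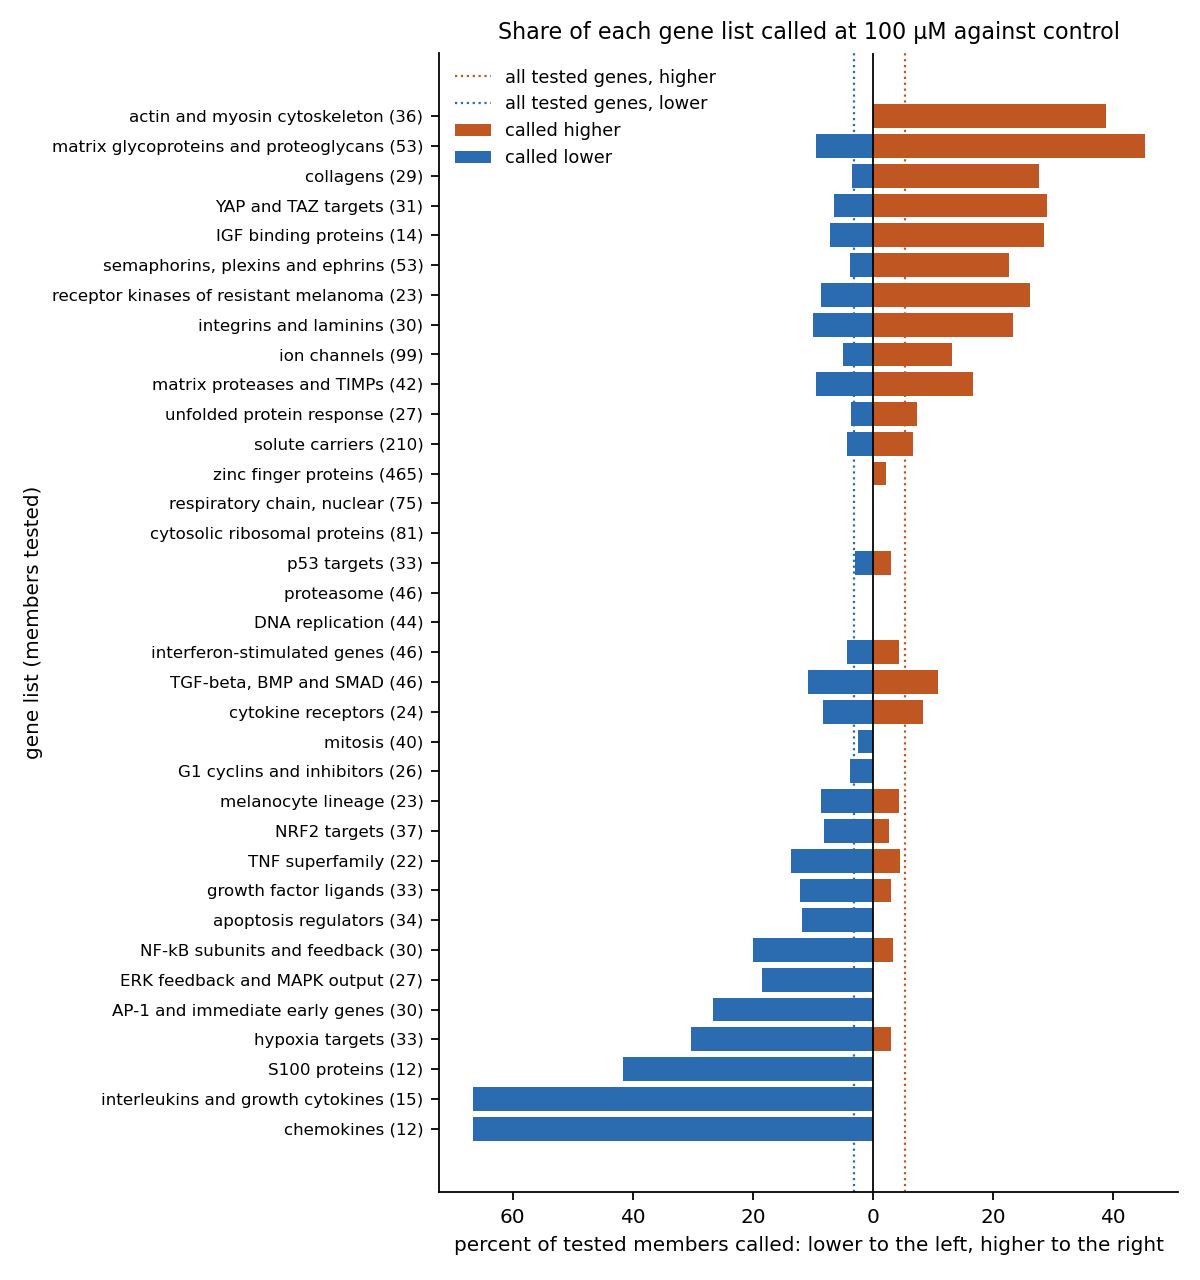
Percent of the tested members of 35 gene lists that were called lower (blue, to the left) or higher (orange, to the right) at 100 µM. The 35 were picked by hand from the 72 lists, and brackets give the number of members tested. Dotted lines mark the shares of all tested genes, 3.14% lower and 5.38% higher. Chemokines and interleukins lie furthest to the left, and matrix glycoprotein and actin genes furthest to the right.

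Some genes were close to absent from 1 group. With under 0.5 CPM in the 3 libraries of a group and at least 1 CPM in the 3 of the other, 25 genes were present in control and 15 at 100 µM. *LCN2*, *CSF2*, *SERPINB2*, *TNFRSF9*, *CXCL2* and *C15orf48* led the first set by control level. *C15orf48*, a mitochondrial protein gene induced in inflammation, went from 9.61, 8.05 and 8.43 CPM to 0.1301, 0.264 and 0.429 CPM, and 32% of its exons overlap *AC025580.2*. In the second set were *EFEMP1*, described above, the glial potassium channel *KCNJ10* (0.316, 0.173 and 0 CPM against 2.31, 1.45 and 2.81 CPM) and the TEC family kinase *BMX* (0.491, 0.278 and 0.409 CPM against 2.60, 2.11 and 2.97 CPM). The other 3 of the 6 with the highest level in this set have clone-based names and lie wholly on the exons of other genes, so their reads cannot be assigned. *AL162417.1* lies on *RALGDS* and had no count in control and 3.64, 2.67 and 3.17 CPM at 100 µM, *AL136295.1* on *TM9SF1* with 7.67, 2.24 and 2.81 CPM, and *AC138696.1* on *ZFP41* with 1.496, 2.11 and 3.93 CPM. The call of *AL136295.1* was lost without 100 µM replicate 3, when all 9 libraries were fitted together and when tested against 1.5-fold and that of *AC138696.1* when all 9 libraries were fitted together and when all but 200 µM replicate 3 were fitted together. The only long noncoding gene named by the rule, *BLACAT1*, rose from 5.68, 6.42 and 4.47 CPM to 12.1, 12.2 and 10.96 CPM. For *BLACAT1* 12% of its exons overlap *LEMD1*, and its call was lost without control replicate 3 and after the GC correction.

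Some called genes are neighbours. Adjacent tested genes with the same call formed 10 runs of 3 or more, 5 of genes called lower and 5 of genes called higher. The longest, of 7 genes called lower, spanned chr4:73740506-74794686 and held *CXCL8*, *CXCL1*, *CXCL3*, *CXCL2*, *MTHFD2L*, *AREG* and *BTC*. A run of 6 on chr2:112645857-112918882 held *SLC20A1*, *NT5DC4*, *CKAP2L*, *IL1A*, *IL1B* and *IL37*. The interleukin-10 cluster on chr1:206767602-206923247 gave 4, namely *IL10*, *IL19*, *IL24* and *FCMR*. On the same chromosome *S100A2*, *S100A16* and *S100A13* stood together at chr1:153561108-153631360. The chemokines, the interleukin-1 genes and the S100 genes in these runs are gene families that lie in clusters. *MTHFD2L*, a folate enzyme gene, and *CKAP2L*, a spindle protein gene, belong to none of them. The longest run of genes called higher held 4, on chr1:161983192-162386818, namely *OLFML2B*, *NOS1AP*, *AL512785.2* and *C1orf226*, of which *AL512785.2* lies wholly on exons of *C1orf226*. The values of *MTHFD2L* and *CKAP2L*, named for their position, were 9.11, 9.65 and 8.26 CPM against 3.90, 4.65 and 4.79 CPM and 243, 245 and 226 CPM against 77.9, 83.0 and 81.4 CPM.

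The called genes differed from the rest in base composition and level. Transcript GC content had a median of 57.5% in genes called higher, 44.9% in genes called lower and 48.2% in all genes with a known value. The share called higher was 1.17% in the GC-poorest eighth of genes and 13.8% in the GC-richest, and the share called lower was 6.09% and 0.995%. Across 13662 genes Spearman's rho of log2 fold change with GC content was 0.49, a description over genes, which are not independent and share the libraries. Calls were also more frequent at low levels. Of 1056 genes under 1 CPM on average 12.6% were higher and 7.01% lower, and of 2296 genes over 100 CPM 2.53% were higher and 2.09% lower. The median transcript length was 4518 bases in genes called higher, 3218 in genes called lower and 3689 in all.

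**Figure D5:**
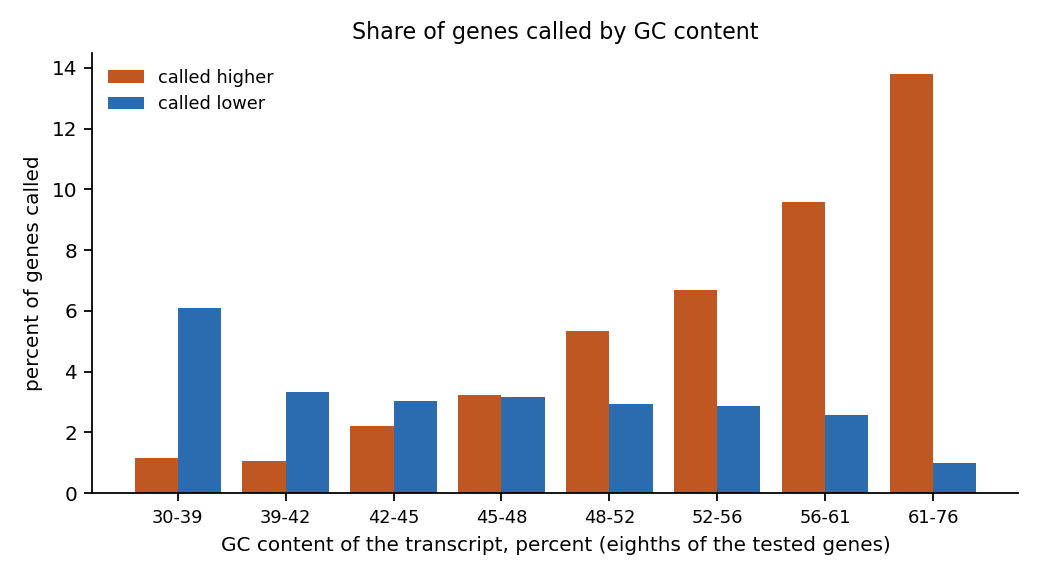
Percent of genes called higher (orange) and lower (blue) at 100 µM in eighths of the tested genes ordered by the GC content of their transcript, from the GC-poorest on the left to the GC-richest on the right. The share called higher goes from 1.17% to 13.8% and the share called lower from 6.09% to 0.995%.

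The 200 µM libraries show where the lower dose stood apart from the higher. In a fit of all 9 libraries 1926 of 13968 genes (13.8%) were called between the doses, 988 (7.07%) higher and 938 (6.72%) lower at 200 µM. Replicate 3 of the 200 µM group lay away from its 2 partners on the third principal component, and without it 1914 genes were called. The comparison shares the 100 µM libraries with the one against control, so the values of each gene are set side by side and not combined. *IL24*, at a mean of 6.77 CPM at 100 µM on the scale of the 9-library fit, was at 1479, 1479.9 and 1012 CPM at 200 µM, a log2 difference of 7.61 ± 0.18 (adjusted p = 4.73e-08). *CXCL10* had a mean of 0.0432 CPM at 100 µM and 13.4, 16.1 and 16.2 CPM at 200 µM (8.33 ± 0.39). *BIRC3* went from 3.02 CPM to 91.5, 66.4 and 112 CPM and *FST* from 73.2 CPM to 2158, 1896 and 1801 CPM. These 4 genes, lower at 100 µM than in control, were all higher at 200 µM than at 100 µM. The antioxidant gene *HMOX1*, not called at 100 µM, had 243, 267 and 177 CPM at 200 µM against a mean of 6.25 CPM. In the other direction *IGFBP5*, higher at 100 µM than in control, had a mean of 31.4 CPM at 100 µM and 0.326, 0.142 and 0.159 CPM at 200 µM (-7.20 ± 0.22), and *ATOH8* had 39.6 CPM and 1.02, 1.10 and 0.953 CPM (-5.26 ± 0.13).

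Several other genes did not pass the rule between the doses. *IL1B* was at a mean of 0.518 CPM at 100 µM and at 0.544, 0.356 and 0.556 CPM at 200 µM, a log2 difference of -0.10 ± 0.43 (adjusted p = 0.873). The difference was 0.16 ± 0.23 for *CXCL3* (adjusted p = 0.699), 0.22 ± 0.15 for *STC1* (adjusted p = 0.271) and -0.03 ± 0.06 for *THBS1* (adjusted p = 0.725). *CXCL8* differed by 0.73 ± 0.19 (adjusted p = 0.014), below 2-fold, with 56.8, 36.1 and 54.3 CPM at 200 µM. *CCN2* differed by 0.43 ± 0.09 (adjusted p = 0.00364) and was not called, since the change was below 2-fold. These 2 genes thus passed the adjusted p and missed only the minimum fold. In contrast, *TNC*, *VCAN* and *COL5A2*, higher at 100 µM than in control, were lower at 200 µM than at 100 µM. They differed by 1.74, 2.44 and 2.54 on the log2 scale, past 2-fold. *VCAN* (adjusted p = 8.04e-06) and *COL5A2* (adjusted p = 6.88e-08) were called lower at 200 µM.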

How the data were processed

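RNA from 9 A375 cultures was sequenced after poly-T capture, per the labels' protocols. The authors deposited a table of whole-number read counts per gene. The tools named in the submitters' processing notes are HISAT2, featureCounts, FastQC and DESeq2, and the build is GRCh38. Tool versions, annotation and strand setting were not given in the sources used here. A library held 27348621 to 30629685 counts. Of 22605 features, 2142 transcripts assembled from the reads were left out, and a further deposited table of 100 features was not used. CPM values were computed here from the counts with TMM factors, save where scaling by library total alone is stated. Genes were filtered with filterByExpr, scaled by TMM and tested in edgeR 4.0.16 (R 4.3.3) with a robust quasi-likelihood fit of 6 libraries (4 residual degrees of freedom). Fold changes carry their standard error (±) on the log2 scale. A call needed a Benjamini-Hochberg adjusted p under 0.05 and a 2-fold change. An exact permutation test of 3 against 3 libraries cannot go below p = 0.1. The dose comparison used 9 libraries. The fit was tested on simulated data with known changes. A few genes under the naming rule are not reported here. The members and the 72 gene lists were chosen with earlier results of these data known.

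Where a group had no count, folds use a floor of 3 counts over the group. Named genes were the 15 largest folds each way at 5 CPM or more, up to 4 per list, the 6 largest CPM changes each way, the leading genes absent from a group and noncoding genes. Positions, GC content and exon overlap of at least 10% come from GENCODE 29 (GRCh38). Promoters come from RefSeq (GRCh38.p14), matched by symbol for 11014 of 13748 genes, and only the first promoter listed for a symbol was used. Alternatives were DESeq2 1.42.0, total-count scaling, other filters, each library left out, the replicate number as a block, other call rules, a GC offset and overlapping genes left out.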

Additional observations from a re-analysis of the deposited data

How the results depend on the processing

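With no minimum fold 8417 genes passed, 4098 higher and 4319 lower, against 1171, 740 and 431 with a 2-fold minimum. After the GC correction 916 genes were called, 486 higher and 430 lower, of which 757 were also called without it. The cause of this shift was not tested. Leaving out each library in turn gave 1114 to 1286 calls, 703 to 823 higher and 404 to 487 lower. Between the doses it gave 1803 to 2190 calls, the highest without 200 µM replicate 2. DESeq2 called 1140 genes, of which 1112 were shared with edgeR. A test against 1.5-fold called 1617. The replicate number did not pair the libraries: libraries of the same number had correlations of their deviations from the group means of -0.0759, 0.044 and -0.127. With the replicate number as a block 1173 genes were called against control, 1144 of them shared with the fit without it, and 1877 between the doses. Of 254 genes under the naming rule, 169 stayed called or uncalled under every alternative that tested them, and 85 changed under 1 or more. Only 212 were tested with overlapping genes left out and 238 with a filter of 1 CPM. When the 2-fold minimum was dropped, 32 uncalled genes passed. No named gene called in the main fit changed direction in an alternative. None called in an alternative had the other direction in the main fit. Some genes called neither in the main fit nor after the GC correction did change direction between these. An example is *MCM7* (0.16, and -0.12 after the GC correction), which passed when the 2-fold minimum was dropped. The GC correction ended the call of 33. Counting error limits values under about 1 CPM, where a library holds about 30 counts or fewer.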

Other observations

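Of 99 ion channel genes 13 were called higher and 5 lower (13.1% and 5.05%), most of them at low counts. Over all tested genes 5.38% were higher and 3.14% lower. The counts were 8 and 3 with a filter of 1 CPM, and the count of higher genes was 8 without 100 µM replicate 1 and 7 after the GC correction. The neuronal potassium channel *KCNA2* rose from 0.561, 0.139 and 0.239 CPM to 1.69, 1.42 and 1.06 CPM, and *KCNF1*, a silent potassium channel subunit, fell from 1.40, 0.902 and 1.64 CPM to 0.325, 0.264 and 0.165 CPM. Of 210 solute carriers 14 were higher and 9 lower (6.67% and 4.29%), shares close to those of all genes. The urea transporter *SLC14A1* fell from 23.8, 22.1 and 24.1 CPM to 3.84, 3.36 and 4.39 CPM (-2.59 ± 0.11 on the log2 scale, adjusted p = 7.59e-09 in the edgeR quasi-likelihood test). Of 35 ABC transporters 6 were higher and 3 lower (17.1% and 8.57%), and the lower *ABCA10* went from 14.8, 17.3 and 17.2 CPM to 4.65, 5.90 and 6.14 CPM.

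Of 465 zinc finger genes of the ZNF series 10 were higher (2.15%) and none lower, and 4 were higher after the GC correction. Over all tested genes 5.38% were higher and 3.14% lower. The median log2 fold change of the ZNF genes was -0.16, and with no minimum fold 80 of them were higher and 165 lower. *ZNF488*, a factor of oligodendrocytes, rose from 0.947, 1.01 and 1.43 CPM to 5.27, 3.86 and 4.46 CPM. Of 23 Kruppel-like and SP factors 2 were higher and 2 lower (8.70% each way). Only 1 was higher after the GC correction, with a filter of 1 CPM, with overlapping genes left out or without 100 µM replicate 3. Without control replicate 1 only 1 was lower. The Kruppel-like factor *KLF5*, of epithelia, fell from 68.1, 67.3 and 59.5 CPM to 22.2, 23.9 and 26.0 CPM (-1.43 ± 0.08, adjusted p = 3.82e-08). Of 20 circadian clock genes 1 was higher and 2 were lower (5% and 10%). None was higher after the GC correction or without 100 µM replicate 1, and 1 was lower with a filter of 1 CPM or without control replicate 1. The clock receptor *RORA* fell from 9.08, 12.1 and 9.49 CPM to 2.83, 2.90 and 3.04 CPM. None of 37 HOX genes was called, and 2 were higher without control replicate 1.

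Other genes with large changes have varied functions. The hair keratin *KRT81* went from 0.561, 0.625 and 0.478 CPM to 4.10, 4.35 and 7.20 CPM (3.22 ± 0.27, adjusted p = 1.29e-06), with 100 µM replicate 3 above the other 2, whereas *KRT15*, a keratin of basal epithelium, fell from 8.48, 7.11 and 8.53 CPM to 1.43, 0.857 and 1.42 CPM. *PRAG1*, a pseudokinase gene, rose from 1.16, 0.867 and 1.13 CPM to 6.70, 6.53 and 7.66 CPM, and *GNAO1*, a G protein alpha subunit of neurons, from 1.54, 1.39 and 1.501 CPM to 5.98, 5.90 and 7.36 CPM. *FREM1*, an extracellular matrix protein of the basement membrane, rose from 9.99, 11.1 and 8.33 CPM to 46.0, 45.7 and 42.7 CPM. The giant cadherin *DCHS1*, which sets planar polarity, rose from 6.28, 6.97 and 7.95 CPM to 35.1, 30.5 and 30.4 CPM. Of 57 protocadherins 7 were higher and none lower, and 2 were higher with overlapping genes left out. The clustered members share exons. Without 100 µM replicate 2, 1 protocadherin was lower. The 2 unclustered members *PCDH7* and *PCDH18* rose from 11.3, 9.92 and 10.2 CPM to 37.7, 38.3 and 38.4 CPM and from 8.20, 6.52 and 6.86 CPM to 28.9, 28.0 and 28.1 CPM. *GANAB*, a glucosidase of glycoprotein folding, was one of the 6 largest rises in CPM (357, 358 and 360.4 CPM against 819.9, 788 and 788 CPM), and its call was lost after the GC correction (0.98).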
